A study of Mus musculus with 7 samples.

Results

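Glycolysis splits glucose into pyruvate, and the genes for its enzymes, the glucose and lactate transporters around it and the hypoxia response that controls many of them were followed here through 7 cell classes of the mouse heart. They are 34 genes, chosen by symbol from 32285 annotated genes, and every one of them was found (Aldoa had 2 rows, which were summed). They comprise the glucose transporters Slc2a1 and Slc2a3, 18 enzymes from the hexokinases Hk1, Hk2 and Hk3 to the lactate dehydrogenases Ldha and Ldhb, the regulators Pfkfb3, Pfkfb4 and Pdk1, the monocarboxylate transporters Slc16a1 and Slc16a3, and 9 genes of the hypoxia response (Hif1a, Egln3, Ankrd37, Bnip3, Bnip3l, Higd1a, Mif, Adm and Ndrg1). Of these, 33 had counts enough to be tested between classes; Eno2 did not.

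As background, glycolysis yields ATP without oxygen, and lactate dehydrogenase and lactate export keep it running. When oxygen falls, prolyl hydroxylases such as EGLN3 stop marking HIF-1α for degradation, and the stabilised factor binds hypoxia response elements near glycolytic genes, near its own feedback regulators and near mitophagy genes such as Bnip3. The adult heart muscle draws mostly on fatty acids, whereas neutrophils and activated macrophages are known for relying on glycolysis, and myocardial infarction cuts off the oxygen supply of the tissue.

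Hearts came from C57BL6/J mice (wild type, WT) or from mice labelled MerTK KO (MERTK is a receptor with which phagocytes take up apoptotic cells), and the animals had had either a sham operation or a myocardial infarction (MI). The 6 groups were WT P1 sham and MI, WT 8 week sham and MI, and Mertk KO P1 sham and MI, where P1 (postnatal day 1) or 8 weeks is the labelled age. WT P1 MI had 2 libraries and every other group had 1. All groups shared a preparation in which dead cells were removed through Annexin V and CD45+ leukocytes were recombined with CD45- cells at 2 to 1, so the makeup of a library is not that of the heart. No label states separate animals for the 2 WT P1 MI libraries. The p-values between conditions therefore reflect only how far this pair lies apart, and that distance may be technical. Those between classes and of the isoform shares rest on the spread over the libraries, which differ in condition. The labels do not give the time after surgery, the animals per library, the Cre or promoter, if any, behind the knockout, or which part of Mertk was deleted; Mertk UMIs were present in the macrophages of both libraries labelled KO (46.1 and 22.1 counts per 1e6 UMIs, CPM, against 26.5 to 73.1 in WT), and 3′ tags outside a deleted part check nothing.

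Values of all 7 libraries are listed in 1 fixed order: first WT P1 (sham, MI replicate 1, MI replicate 2), then WT 8 week (sham, MI), then Mertk KO P1 (sham, MI). Libraries held 7707724 to 130847843 UMIs and 773 to 15312 kept cells, with a median of 2152 (WT 8 week MI) to 11408 UMIs per cell. Cells were assigned to a class by 8 marker genes each, none of them among the 34 genes, and 28453 of 40158 cells (70.9%) were assigned. The 8 markers of the class itself summed to 9564 to 21140 CPM in macrophages, 28530 to 42710 in fibroblasts and 4539 to 6548 in endothelium. Pairs of libraries shared 0 to 41 barcodes, at most 0.613% of the smaller one. Levels are UMIs summed over a class in a library, in CPM. A UMI counts a transcript once whatever its length, so shares of related genes are shares of molecules, and in such sums fewer cells expressing a gene and less RNA per cell cannot be told apart. In every comparison a gene was called when its adjusted p was under 0.05 and its fold change at least 2 (1 on the log2 scale).

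The promoters were examined for the core of the hypoxia response element, since the genes were grouped partly for their response to this factor. RefSeq (GRCm38.p6) held a promoter of 250 bases before to 50 after the start for 31 of the 34 genes, all except Slc2a3, Bnip3l and Ndrg1. The pentamers ACGTG or GCGTG, on either strand and with overlapping matches counted, were present in 28 of these 31 genes (90.3%) and in 46.7% of all 27025 genes with a promoter in the table. ACGTG alone was in 21 of 31 (67.7%), against 21.8% of all genes. A match is a description of the letters and not a bound site. The 5 promoters shown belong to the genes that were higher in both macrophages and fibroblasts of the Mertk KO P1 MI library (below), with each pentamer in capitals, read 5′ to 3′ on the strand of the gene:
Pgk1, chrX:106186850-106187149 (plus strand): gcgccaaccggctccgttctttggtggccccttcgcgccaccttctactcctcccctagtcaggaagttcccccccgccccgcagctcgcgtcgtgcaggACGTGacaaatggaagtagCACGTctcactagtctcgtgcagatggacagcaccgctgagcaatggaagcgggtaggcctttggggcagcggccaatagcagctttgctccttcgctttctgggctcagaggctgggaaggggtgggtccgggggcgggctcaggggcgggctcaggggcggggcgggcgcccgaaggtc
Slc16a3, chr11:120948817-120949116 (plus strand): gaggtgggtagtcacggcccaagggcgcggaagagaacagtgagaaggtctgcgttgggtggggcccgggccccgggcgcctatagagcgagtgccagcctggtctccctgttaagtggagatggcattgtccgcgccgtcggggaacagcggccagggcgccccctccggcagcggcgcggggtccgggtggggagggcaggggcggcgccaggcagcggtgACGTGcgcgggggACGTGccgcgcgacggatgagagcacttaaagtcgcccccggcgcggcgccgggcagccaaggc
Egln3, chr12:54203825-54204124 (minus strand): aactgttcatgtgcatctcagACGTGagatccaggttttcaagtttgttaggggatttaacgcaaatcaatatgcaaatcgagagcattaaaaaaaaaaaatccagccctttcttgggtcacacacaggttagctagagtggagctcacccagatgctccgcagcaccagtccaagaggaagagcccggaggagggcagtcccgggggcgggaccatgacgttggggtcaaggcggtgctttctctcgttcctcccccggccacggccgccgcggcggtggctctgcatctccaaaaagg
Bnip3, chr7:138909457-138909756 (minus strand): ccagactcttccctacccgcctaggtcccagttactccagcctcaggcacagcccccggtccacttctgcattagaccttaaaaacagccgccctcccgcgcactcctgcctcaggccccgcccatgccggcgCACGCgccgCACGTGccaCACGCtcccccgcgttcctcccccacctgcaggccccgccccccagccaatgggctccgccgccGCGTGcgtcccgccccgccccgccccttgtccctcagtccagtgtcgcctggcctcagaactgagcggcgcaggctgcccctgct
Mif, chr10:75860228-75860527 (minus strand): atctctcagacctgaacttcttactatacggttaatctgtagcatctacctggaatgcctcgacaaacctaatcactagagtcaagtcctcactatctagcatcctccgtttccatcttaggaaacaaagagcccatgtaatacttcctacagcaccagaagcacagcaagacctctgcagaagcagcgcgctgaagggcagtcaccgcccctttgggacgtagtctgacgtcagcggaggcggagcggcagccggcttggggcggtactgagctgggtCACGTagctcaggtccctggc
Bnip3 held 5 pentamers within this window, among them a palindrome that reads as a match on both strands, Pgk1 and Slc16a3 held 2 each, and Egln3 and Mif held 1 each. The windows follow RefSeq starts, whereas the gene positions given in the text are from GENCODE vM21, and these can differ. The Slc16a3 window begins at 120948817, inside the gene, which starts at 120948480 in GENCODE.

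Cell classes differed in the genes they used within a family. To compare them, each class was set against the mean of the other 6 with the library as a block, in the quasi-likelihood test of edgeR, with p-values adjusted by the Benjamini-Hochberg method over 12524 genes. Of 231 gene and class pairs, 96 were called, 45 higher and 51 lower, and they are mapped in the heatmap of class differences. Pfkl (liver type phosphofructokinase), Tpi1, Mif and Higd1a were called in no class.

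**Figure D1:**
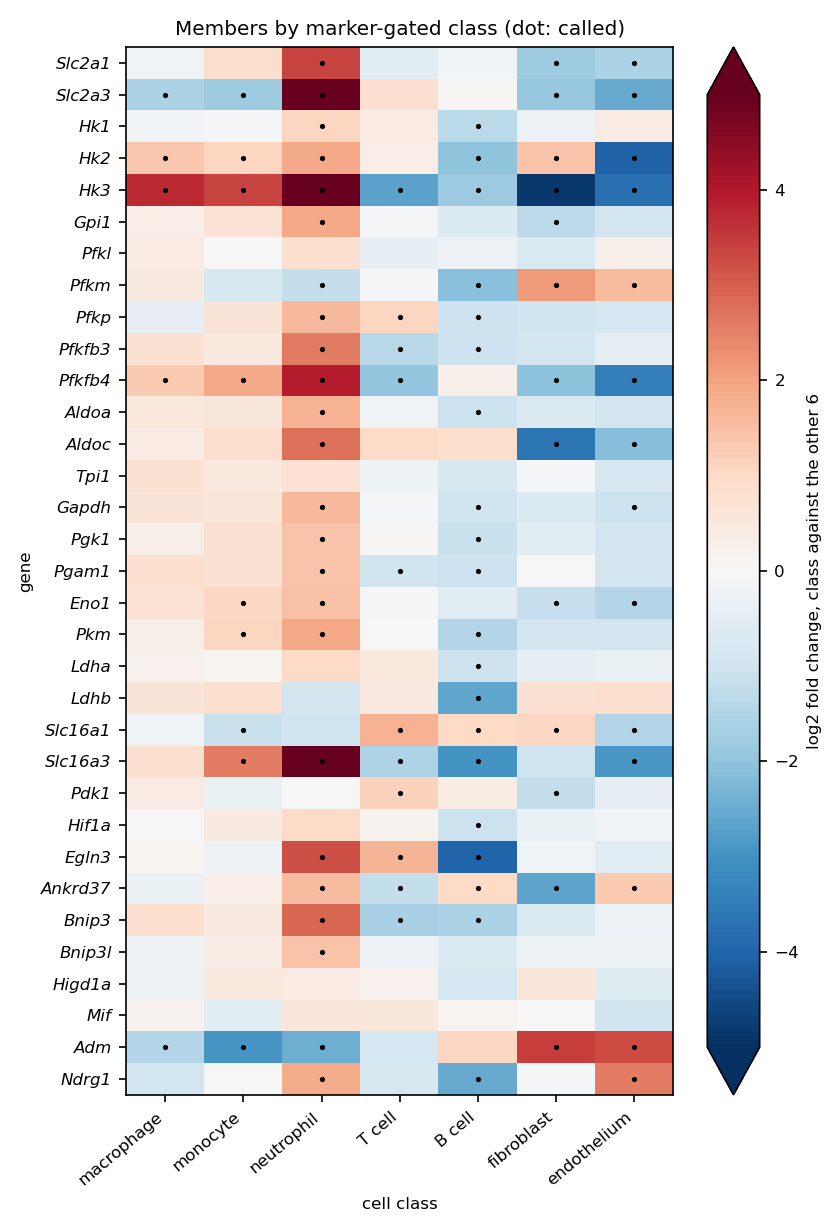
Log2 fold change of each gene (rows, by role) in each cell class (columns) against the mean of the other 6 classes, with the colour scale capped at 5 in both directions and a dot on each called pair. Neutrophils carry the most called higher genes (22) and B cells the most called lower ones (18).

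Neutrophils had the highest levels of the facilitated glucose transporter Slc2a3, the myeloid hexokinase Hk3 and the lactate exporter Slc16a3. Slc2a3 (ENSMUSG00000003153, chr6:122727809-122801640 on GRCm38, minus strand, protein coding) had 525, 109, 265, 364, 0, 234 and 201 CPM in neutrophils. The 0 came from WT 8 week MI, with 12 neutrophils, and the 109 from WT P1 MI replicate 1, with 18. In the 5 libraries with at least 20 neutrophils the level was 318 ± 131 CPM (SD, n = 5), while the class mean nearest to it was 12.2 CPM in T cells. The log2 fold change of Slc2a3 was 6.90 ± 0.18 (SE, adjusted p = 5.35e-29). Hk3 (chr13:55005985-55021385, minus strand) had 48.7 ± 25.5 CPM (SD, n = 5) in neutrophils, with a log2 fold change of 5.97 ± 0.26 (adjusted p = 7.71e-23). Slc16a3, which encodes MCT4 and exports lactate, had 764 ± 223 CPM (SD, n = 5) and a log2 fold change of 5.02 ± 0.22 (adjusted p = 1.89e-22).

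In all, 22 of the 33 tested genes were higher in neutrophils and 2 lower, where 19.8% of all tested genes were higher and 23.3% lower. The count depends on the scaling between classes: without TMM normalization it was 10 higher and 5 lower, the median of all genes moved from -0.21 to -1.17 and that of the 33 genes from 1.53 to 0.50. The 10 genes called higher under both scalings were Slc2a3, Hk3, Slc16a3, Pfkfb4 (3.93 with TMM, 3.06 without), Slc2a1 (3.39, 2.45), Egln3 (3.22, 2.21), Bnip3 (2.88, 1.89), Aldoc (2.74, 1.70), Pfkfb3 (2.60, 1.61) and Pkm (1.93, 1.02). Pfkfb3 and Pfkfb4 make the fructose 2,6-bisphosphate that activates phosphofructokinase. For other core enzymes the call was lost without TMM, among them Gapdh (1.62 with, 0.65 without), Aldoa (1.76 with) and Eno1 (1.45 with). Adm, encoding the vasodilator peptide adrenomedullin, was lower in neutrophils (-2.44 ± 0.67), as was Pfkm, the muscle type phosphofructokinase (-1.18 ± 0.39).

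Macrophages and monocytes shared Hk3. In macrophages Hk3 stood at 27.3, 30.6, 20.4, 13.2, 25.3, 19.0 and 21.6 CPM. Those values range from 13.2 to 30.6, while the means of T cells, B cells, fibroblasts and endothelium were at most 0.393 CPM. Its log2 fold change was 3.72 ± 0.26 in macrophages (adjusted p = 1.00e-15) and 3.37 ± 0.30 in monocytes. Macrophages had 3 genes higher (Hk3, Hk2 at 1.36 ± 0.21 and Pfkfb4 at 1.32 ± 0.17) and 2 lower (Slc2a3 at -1.57 ± 0.30, Adm at -1.47 ± 0.45), against 14.6% and 7.7% of all genes. Monocytes had 6 higher and 3 lower, against 12.1% and 15.3% of all genes, and 3 higher and 3 lower without TMM. Slc16a3 was higher in monocytes at 2.58 ± 0.23 (adjusted p = 1.73e-12), with a mean of 312 ± 115 CPM (SD, n = 6) beside 122 ± 84.6 (SD, n = 7) in macrophages, and the ranges of the 2 classes overlapped. Neutrophils are high in both Hk3 and Slc16a3, and neutrophil RNA was estimated at 0.15 to 5.73% of the monocyte UMIs of a library. With neutrophil and macrophage RNA subtracted, all 96 calls between classes stayed.

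B cells had more genes called lower than any other class, with and without TMM, and T cells had a mixed set. In B cells 18 genes were lower and 2 higher (20.2% and 11.6% of all genes), and without TMM 10 were lower and 3 higher. Egln3 was lower by the largest amount in B cells (-4.01 ± 0.72, adjusted p = 1.17e-05), followed by Slc16a3 (-2.97 ± 0.36), Ldhb (-2.61 ± 0.40) and Ndrg1 (-2.53 ± 0.38). The 2 higher genes in B cells were Slc16a1, which encodes MCT1, and Ankrd37, each at 1.01. T cells had 4 genes higher, namely Slc16a1 (1.72 ± 0.26), Egln3 (1.72 ± 0.34), Pdk1 (1.15 ± 0.24), which holds pyruvate back from the mitochondria, and the platelet type phosphofructokinase Pfkp (1.06 ± 0.19). Another 7 were lower in T cells, led by Hk3 (-2.67) and Pfkfb4 (-1.95), where 12.9% of all genes were higher and 17.7% lower.

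Fibroblasts and endothelial cells shared Adm and Pfkm and differed in their hexokinase. Adm (chr7:110627661-110629820, plus strand) had 31.3, 43.1, 27.4, 80.4, 24.7, 28.8 and 24.8 CPM in fibroblasts and 34.4, 30.2, 29.8, 54.8, 162, 19.6 and 31.9 CPM in endothelium. These sets overlap, and the value of 162 rests on the 98857 UMIs of 46 endothelial cells. The class difference of Adm was 3.45 ± 0.26 in fibroblasts (adjusted p = 3.75e-15) and 3.26 ± 0.29 in endothelium (adjusted p = 3.73e-13), and that of Pfkm 2.12 ± 0.19 and 1.60 ± 0.22. Ndrg1, a stress response gene, had 120.1 ± 36.1 CPM (SD, n = 7) in endothelium and a class difference of 2.55 ± 0.19 (adjusted p = 3.26e-15), and it was also called in neutrophils with TMM (1.84) though not without.

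Hk2, the inducible hexokinase (chr6:82725025-82774454, minus strand), separated the same pair of classes. It had 100, 112, 67.3, 49.1, 138, 75.3 and 81.5 CPM in fibroblasts and 2.22, 2.59, 1.85, 3.14, 10.1, 5.59 and 8.52 CPM in endothelium. The lowest fibroblast library was above the highest endothelial one. Hk2 was higher in fibroblasts (1.41 ± 0.21) and lower in endothelium (-4.04 ± 0.35, adjusted p = 2.91e-13; -3.55 without TMM). In total, fibroblasts had 4 genes higher and 9 lower (24.5% and 17.2% of all genes), and endothelium 4 higher and 10 lower (20.7% and 15.1%). Without TMM these became 5 and 7 in both classes, as the median of all genes rose to 0.35 and 0.51. Fibroblasts were also lower in Aldoc (-3.65 ± 0.44) and Hk3 (-4.81 ± 0.48), and endothelium in Pfkfb4 (-3.42 ± 0.26) and Slc16a3 (-2.90).

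The choice among related genes was then expressed as the share of a family's UMIs, for class sums with at least 10 of them. Hexokinase use ran from almost pure Hk1 in endothelium (91.8 ± 3.27%, SD, n = 6) through a near even split of Hk1 and Hk2 in B cells (53.5 ± 7.69% Hk1, n = 5) and T cells (48.4 ± 16.6%, n = 6) to mostly Hk2 in fibroblasts (76.6 ± 5.11%) and macrophages (59.98 ± 5.23%). Hk3 made up 45.3 ± 20.5% in neutrophils, 19.5 ± 5.97% in macrophages and 18.8 ± 7.19% in monocytes, and at most 2.38% on average in the other classes. Neighbours in this order (macrophages and monocytes, B and T cells) did not differ beyond their spread. Hk3 of fibroblasts was 0.0917% on average.

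Phosphofructokinase leaned to Pfkp in T cells (74.6 ± 5.19%), neutrophils (70.7 ± 8.64%) and monocytes (65.1 ± 10.7%), and Pfkm reached 12.8 ± 3.39% in fibroblasts and 7.03 ± 1.12% in endothelium. Slc2a3 took 71.8 ± 12.9% of the glucose transporter UMIs in neutrophils and 2.38 to 19.9% in macrophages, where 3 to 31 UMIs per library were Slc2a3. Neutrophil RNA carried into the macrophage sums was estimated at 31.3% of those UMIs in Mertk KO P1 MI and at 81.8% in the adult infarct library. The share of 19.9% came from WT P1 MI replicate 2. Its macrophages had the highest estimate of neutrophil RNA, 1.97% of all their UMIs, against 0.916% and 0.32% in the former libraries. The part of this in the 19.9% was not tested. Lactate transport was almost wholly Slc16a3 in monocytes (99.2 ± 0.657%) and neutrophils (98.7 ± 2.69%), and split with Slc16a1 in T cells (54.0 ± 21.6% Slc16a3) and B cells (37.6 ± 25.7%, n = 4). In fibroblasts the Slc16a3 share ranged from 43.0 to 91.2% among libraries. Ldha made up 90.7% (monocytes) to 98.8% (B cells) of lactate dehydrogenase UMIs on average.

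**Figure D2:**
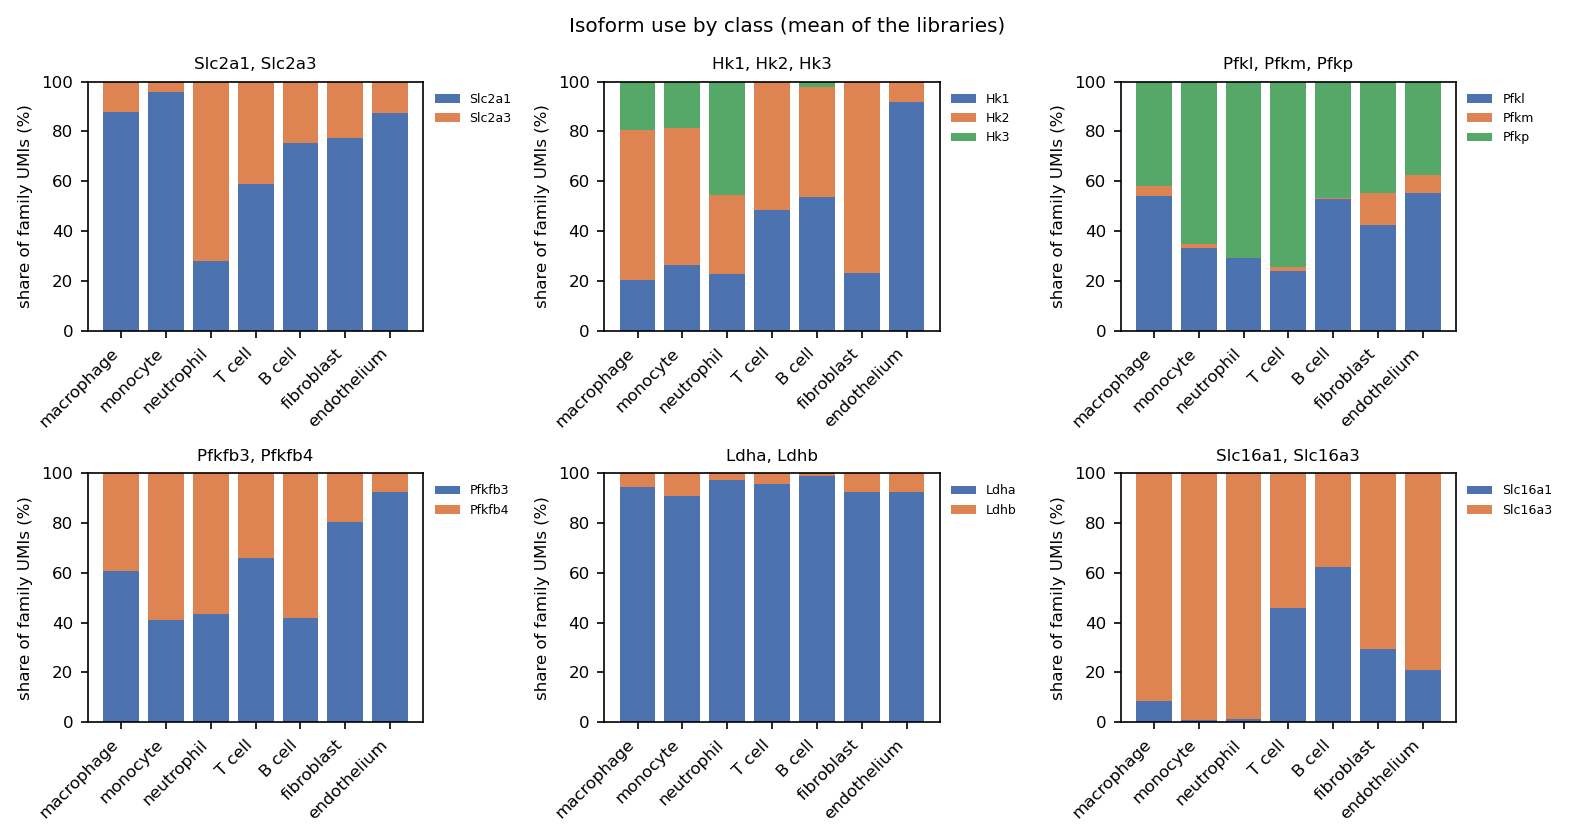
Mean share of each gene in the UMIs of its family (y axis, %, stacked) in the 7 classes, for 6 families; each class is averaged over its libraries with at least 10 family UMIs. Endothelium stands out by Hk1 (91.8%), neutrophils by Slc2a3 (71.8%) and Hk3 (45.3%), and monocytes by Slc16a3 (99.2%).

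Shares were tested over libraries, each paired with itself, by an exact two-sided sign-flip permutation test in 16 comparisons. None reached an adjusted p under 0.05, and the smallest exact p possible is 0.0156 with 7 libraries and 0.0312 with 6. The share of Hk3 was 18.3 ± 5.56 percentage points (SD) higher in leukocytes than in fibroblasts and endothelium, in 7 of 7 libraries (exact permutation p = 0.0156, adjusted 0.0625). The share of Pfkp was 16.9 ± 7.62 points higher in 7 of 7 (the same exact p and adjusted value). Between myeloid cells and lymphocytes, Slc16a3 was 46.6 ± 21.5 points and Hk3 25.8 ± 9.16 points higher, in 6 of 6 libraries each (exact permutation p = 0.0312, adjusted 0.0714).

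The level of the 18 enzymes was also summed per class and library. In macrophages the sum was 3608, 4422, 4269, 6163, 9232, 5953 and 11705 CPM. In fibroblasts it was 2281, 2461, 2318, 2726, 6852, 3196 and 7236 CPM, and in endothelium 2652, 2854, 3192, 2403, 4936, 3516 and 6200 CPM. In T cells it was 2951, 3733, 4542, 3127, 6308, 7634 and 8320 CPM, and in B cells 2319, 2682, 2664, 1631, 3005, 2529 and 3294 CPM. In all 7 classes Mertk KO P1 MI was highest, and WT 8 week MI came next except in T cells, where Mertk KO P1 sham stood between them. Both WT P1 MI libraries lay above WT P1 sham in each class, by little in fibroblasts and by more in neutrophils (4238 in sham, 6015 and 7131 after infarction) and monocytes (4412, 4936 and 6064), of which WT P1 MI replicate 1 held 18 cells each and WT 8 week MI 12 neutrophils. Single genes did not all follow this order: in WT 8 week MI macrophages Gapdh had 1510 CPM, less than in WT 8 week sham (2349), whereas Eno1 had 1631, more than in any other library.

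**Figure D3:**
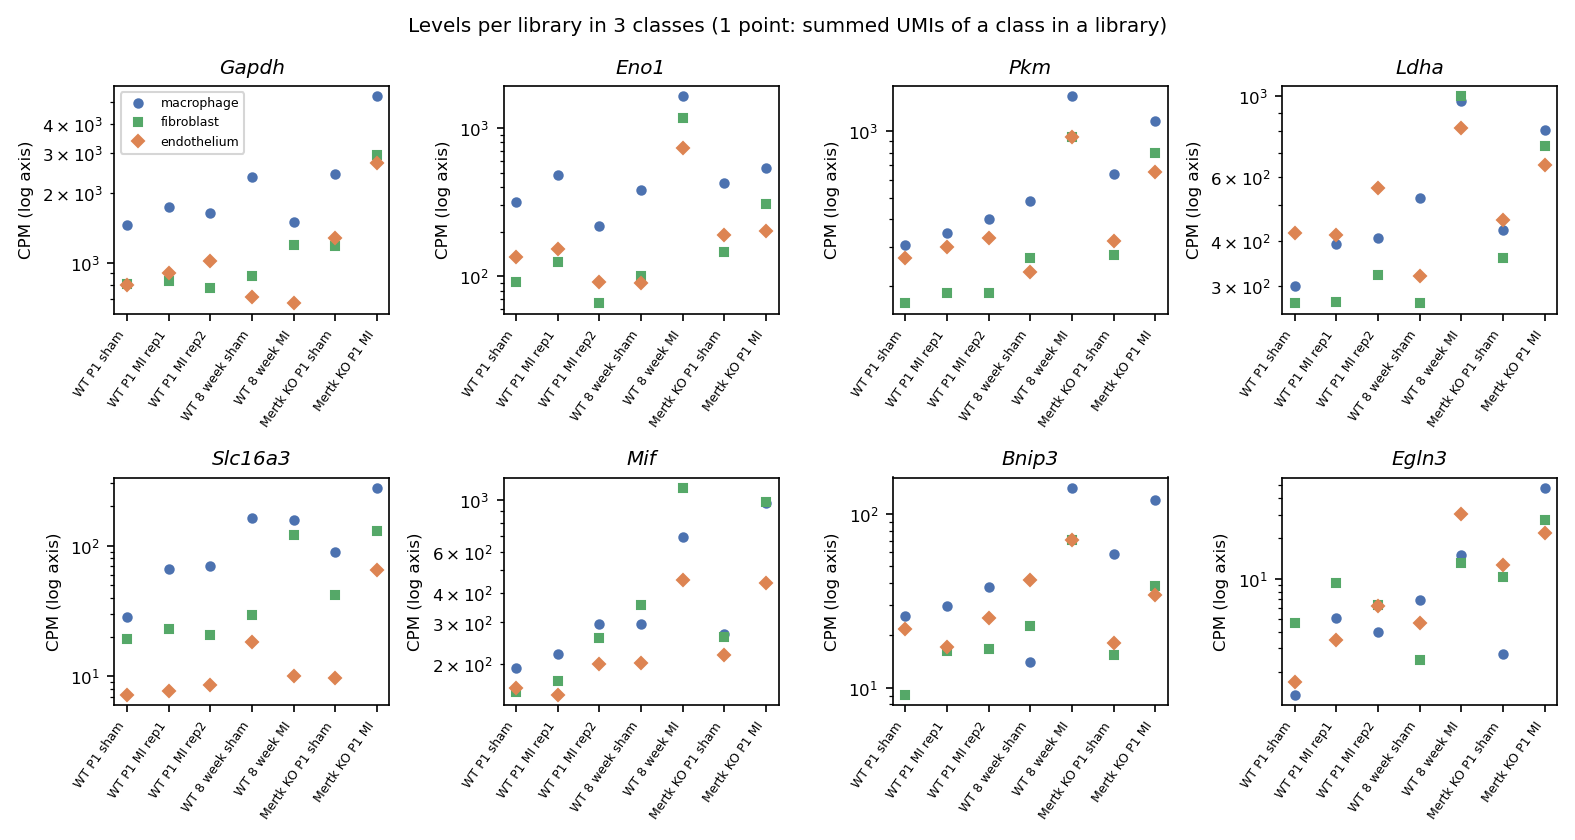
Level of 8 genes (panels; log axis, CPM) in macrophages, fibroblasts and endothelium of each of the 7 libraries (x axis), 1 point per class sum. Eno1 peaks in WT 8 week MI in all 3 classes (1631, 1168 and 728 CPM), while Gapdh is highest in Mertk KO P1 MI (5268, 2941 and 2722 CPM).

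The first tested comparison of conditions set WT P1 MI against WT P1 sham, which asks how neonatal cells respond to infarction, and no gene of the 34 was called. Conditions were compared within a class by the same edgeR test, with 1 residual degree of freedom: a group of 1 library is taken to vary as much as the replicated group. Macrophages, T cells, B cells, fibroblasts and endothelium could be fitted, while monocytes and neutrophils could not, because WT P1 MI replicate 1 had 18 cells of each. Calls over all genes were 1.18% in macrophages, 0% in T cells, 0.36% in B cells, 1.47% in fibroblasts and 0.345% in endothelium. An unadjusted p under 0.05 was reached by 4 of 32 genes in macrophages, 1 of 29 in T cells, 0 of 25 in B cells, 3 of 33 in fibroblasts and 2 of 29 in endothelium, and DESeq2 called 0. Slc16a3 in macrophages was 28.7 CPM in the sham library and 66.3 and 69.4 in the infarction libraries, a log2 fold change of 1.42 ± 0.57 (adjusted p = 0.569). Ankrd37 had 1.65 ± 0.61 in macrophages (adjusted p = 0.377) and 1.57 ± 0.59 in fibroblasts (adjusted p = 0.263). Among the 32 macrophage genes the fold change was above 0 in 30, with a median of 0.50 beside 0.03 over all genes, and the medians were 0.17 in fibroblasts and 0.14 in endothelium beside 0.00 and 0.02.

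In the 2 classes that could not be fitted, WT P1 MI replicate 2 alone was set against WT P1 sham (43 neutrophils and 42 monocytes), as log2 CPM ratios with 95% intervals for counting error only and no test. In neutrophils Mif had 44.3 CPM in sham and 439 after infarction, a ratio of 3.21 (2.26 to 4.63, on 7 UMIs in sham). Tpi1, triose phosphate isomerase, had a neutrophil ratio of 1.96 (1.10 to 3.17) and Gapdh one of 1.03 (0.84 to 1.23). Slc16a3 (-1.10, -1.33 to -0.86), Slc2a3 (-0.99, -1.31 to -0.64) and Ndrg1 (-2.65, -3.47 to -1.66) were lower in those neutrophils. Of 30 genes in neutrophils, 21 had a ratio above 0 and 9 below it, with a median of 0.81 beside -0.26 over all genes. At least 2-fold higher were 12 of them (17% of all genes), and 3 were at least 2-fold lower (22.6%). In monocytes 3 of 27 genes were at least 2-fold higher (6.75% of all genes), among them Mif at 1.74 (1.25 to 2.32) and Tpi1 at 1.15 (0.72 to 1.64). Another 3 were at least 2-fold lower (11.7% of all genes), among them Ldhb at -1.55 (-2.22 to -0.82). The monocyte median was 0.13 beside -0.19 over all genes.

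Infarcted neonatal and adult hearts were compared next. With 1 adult infarct library, age and library cannot be told apart. Against WT 8 week MI, 28 gene and class pairs were called in WT P1 MI and all 28 were lower: 11 of 32 genes in macrophages, where 4.11% of all genes were lower, 15 of 33 in fibroblasts (7.36%) and 2 of 29 in endothelium (1.15%). In B cells 0 of 25 were called (0.651% lower and 0.471% higher over all genes), 1 had an unadjusted p under 0.05, and DESeq2 called 1. Medians over the genes were -1.04 in macrophages, -1.12 in fibroblasts and -0.39 in endothelium, beside 0.05, 0.25 and 0.47 over all genes. T cells were not compared across ages, because WT 8 week MI had 21 of them. Under a stricter gate (at least 4 of 8 markers and a lead of 3) 14 pairs were called: all 11 macrophage calls were lost, with adjusted p of 0.0505 to 0.101 and log2 fold changes of -2.53 to -1.64, while 13 of the 15 fibroblast calls and Eno1 in endothelium stayed. With cells thinned to 1000 UMIs before gating, 5 of the 11 macrophage calls (Ldha, Higd1a, Mif, Slc16a3 and Egln3) and 3 of the fibroblast calls (Eno2, Higd1a and Pgam1) were lost. Monocytes were compared without a test and with WT P1 MI replicate 2 alone. Of 27 genes, 11 were at least 2-fold lower (15.1% of all genes) and 3 at least 2-fold higher (26%). Eno1 was at -2.57 (-2.76 to -2.38) and Gapdh at 1.00 (0.79 to 1.22). The file headers name Cell Ranger 6.1.0 for replicate 2 and 4.0.0 for WT 8 week MI, and the part of this was not tested. Leaving out TMM moved the median of all genes to 0.38, 0.15 and 0.12 in these 3 classes. Across all 5 tested comparisons, 37 of 682 pairs changed sign without TMM, none of them called and none above 0.24 in size.

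Among the enzymes, Eno1, the main enolase (chr4:150236721-150248879, plus strand), showed this in all 3 classes. In fibroblasts Eno1 had 91.5, 125, 65.6, 101, 1168, 146 and 305 CPM, so the adult infarct library stood above all others. A near copy, Eno1b, had 0.651 to 4.26% of the UMIs of both genes together, so a small part of the Eno1 UMIs is uncertain. Relative to the adult infarct, the log2 fold change of Eno1 in WT P1 MI was -3.55 ± 0.42 in fibroblasts (adjusted p = 1.31e-14), -2.57 ± 0.53 in macrophages (adjusted p = 0.000913) and -2.28 ± 0.46 in endothelium (adjusted p = 0.000151). Eno1 was also lower in WT P1 MI replicate 2 than in replicate 1 in 7 of 7 classes (log2 ratios of -1.15 to -0.22), and these libraries differ in the Cell Ranger version of their headers (6.1.0 and 4.0.0); the part of this in the result was not tested. Without replicate 2, which leaves libraries of 1 header version in this contrast, the values were -3.25, -2.13 and -2.01, and without replicate 1 they were -3.99, -3.20 and -2.58.

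Other enzymes followed in fibroblasts and macrophages. Pkm, pyruvate kinase, had 166, 185, 185, 266, 941, 276 and 795 CPM in fibroblasts, with both WT P1 MI values below the adult infarct one. Its log2 fold change was -2.25 ± 0.45 in fibroblasts (adjusted p = 1.89e-05) and -2.27 ± 0.51 in macrophages (adjusted p = 0.00242). Pfkl had 23.2, 22.4, 21.1, 19.0, 93.8, 33.7 and 70.1 CPM in fibroblasts and a log2 fold change of -2.01 ± 0.37 (adjusted p = 2.75e-06), and of -2.18 ± 0.47 in macrophages. Aldoa was lower in macrophages (-2.47 ± 0.51) and fibroblasts (-1.77), and so was Ldha (-1.61 and -1.65), of which the macrophage value was not called without TMM (-1.28). Pgk1, Pgam1, Ldhb and Eno2 were called lower in fibroblasts, at -1.51, -1.12, -1.45 and -2.76. Eno2 rested on 6 UMIs in the adult infarct fibroblasts, and its call (adjusted p = 0.0322) was lost under 4 alternatives (0.0556 to 0.128); Pgam1 (0.0443) was lost under 5 (0.0512 to 0.12). Pgk1 is X-linked, and Xist, expressed from the inactive X in females, was at 0 CPM in WT 8 week MI and 933 and 413 in WT P1 MI; the part of the sex makeup was not tested. Gapdh was not called in any class.

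Of the transporters, Slc16a3 was lower in fibroblasts (-2.37 ± 0.36, adjusted p = 6.06e-09) and macrophages (-1.55; -1.22 and not called without TMM), and Slc2a1 in fibroblasts (-2.01 ± 0.48; not called by DESeq2, adjusted p = 0.0654). Of the hypoxia response genes, Bnip3 (chr7:138890836-138909519, minus strand), a mitophagy receptor, had 26.0, 29.6, 38.0, 13.97, 141, 59.0 and 120.2 CPM in macrophages. The 2 infarct libraries other than WT P1 MI were the highest. The log2 fold change of Bnip3 in WT P1 MI was -2.37 ± 0.47 in macrophages (adjusted p = 0.000625) and -1.99 ± 0.39 in fibroblasts. Mif, a cytokine induced by hypoxia, had -2.28 ± 0.46 in fibroblasts (adjusted p = 2.6e-05) and -1.75 in macrophages. Higd1a was called lower in both classes, Ndrg1 (-2.17 ± 0.52) and Egln3 (-2.12 ± 0.56, adjusted p = 0.0103) in macrophages, and Hif1a (-1.25) in fibroblasts. Adm was called in endothelium (-2.07 ± 0.55, adjusted p = 0.0114), resting on 16 UMIs in the adult library.

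The WT 8 week MI class sums are small, with 607971 UMIs from 157 fibroblasts, 98857 from 46 endothelial cells and 64890 from 59 B cells. The absence of calls in B cells therefore does not show equal levels. Summed macrophage markers in that library reached 442 CPM in fibroblasts and 506 in endothelium, against 10.7 to 62.7 and 14.7 to 159 in the other libraries. The corresponding macrophage RNA, estimated at 2.09% and 2.39%, was subtracted in an alternative chosen after seeing the data: 27 of the 28 calls were kept, and fibroblast Pgam1 was lost. Erythroid transcripts stood at 12990 CPM in the macrophages of WT P1 MI replicate 1 (1.36 to 35.8 elsewhere), and at 5513 CPM in the endothelium of WT 8 week MI (20.7 and 240 in WT P1 MI), and mural cell markers at 1919 CPM in its fibroblasts (374 and 413 in WT P1 MI). Their part in the result was not tested.

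To ask whether infarction acted differently at the 2 ages, the difference between the injury effects (WT P1 MI against sham, minus WT 8 week MI against sham) was tested, and 5 gene and class pairs were called. Of all genes, 2.68% were called in macrophages, 4.99% in fibroblasts, 0.742% in endothelium and 0.305% in B cells, where 0 of 25 of the genes were called and 1 had an unadjusted p under 0.05 (DESeq2 called 2 pairs in all). Bnip3 in macrophages (-3.04 ± 0.76, adjusted p = 0.0145), Eno1 in fibroblasts (-3.30 ± 0.67, adjusted p = 0.000107), Eno1 in endothelium (-2.85 ± 0.69, adjusted p = 0.0107) and Pfkl in fibroblasts (-2.18 ± 0.55, adjusted p = 0.00393) had the more positive injury effect in the adult libraries. Adm in fibroblasts had the more positive effect in neonates (2.05 ± 0.61, adjusted p = 0.0223), and it was not called without TMM (1.85), under the stricter gate (adjusted p = 0.0552) or in DESeq2 (0.298). Pfkl was not called in DESeq2 either (0.0975). Adm had 80.4 CPM in the adult sham and 24.7 in the adult infarct library, and 31.3 in the neonatal sham and 43.1 and 27.4 in the neonatal infarct libraries. Bnip3 lost its call under the stricter gate (adjusted p = 0.239), with counts thinned to 1000 UMIs per cell before gating (0.0709) and in DESeq2 (0.104). Eno1 was -2.98 in fibroblasts and -2.58 in endothelium without WT P1 MI replicate 2, and since the WT 8 week sham header also names 6.1.0, no setting held 1 version here. In fibroblasts the split was 1 higher and 2 lower, and 0 and 4 without TMM. Each adult group had 1 library, so age and library cannot be told apart here. Xist was at 0.0365 CPM in the adult sham and 0 in the adult infarct library. In WT P1 it was at 342 in sham and at 933 and 413 after infarction. The part of the sex makeup was not tested.

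The knockout comparison set the Mertk KO P1 MI library against the same 2 WT P1 MI libraries as the age comparison above, so the 2 sets of values are not independent of each other. Here 25 pairs were called and all 25 were higher: 5 of 32 in macrophages, where 0.588% of all genes were higher, 17 of 33 in fibroblasts (5.14%) and 3 of 29 in endothelium (2.81%). In T cells 0 of 29 were called (0% of all genes), with 1 at an unadjusted p under 0.05, and in B cells 0 of 25 (0.125% higher) with 0 at that level. The median of the genes was 1.30 in macrophages, 1.17 in fibroblasts and 0.59 in endothelium, beside -0.05, -0.03 and -0.03 over all genes. All 5 macrophage calls depended on the gate: they were lost under the stricter gate (log2 fold changes of 1.54 to 2.88, adjusted p of 0.339 to 0.844) and when cells were thinned to 1000 UMIs before gating (1.78 to 2.95, adjusted p of 0.0934 to 0.413). In fibroblasts 16 of 17 stayed under the stricter gate. Without TMM 7, 16 and 5 were called in the 3 classes and 1 in T cells, which puts the all-gene median at -0.18 in macrophages and in fibroblasts. DESeq2 called 17 in all. With 1 knockout library, genotype and library cannot be told apart.

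Slc16a3 (chr11:120948480-120960868, plus strand) was higher in all 3 classes. In fibroblasts it had 19.3, 22.9, 20.7, 29.6, 120, 41.9 and 130 CPM, so the knockout infarct library was close to the adult infarct one and both stood above the rest. Its log2 fold change was 2.72 ± 0.32 in fibroblasts (adjusted p = 1.34e-14), 2.92 ± 0.42 in endothelium (adjusted p = 5.9e-10) and 2.17 ± 0.50 in macrophages (adjusted p = 0.0117). In endothelium none of the 3 calls stayed when cells were thinned (adjusted p of 0.121 to 0.516), and Slc16a3 and Tpi1 were not called by DESeq2 (0.681 and 0.859). Egln3 (chr12:54178981-54203860, minus strand), which feeds back on HIF-1α, had 1.34, 5.10, 4.0, 6.87, 15.1, 2.71 and 47.9 CPM in macrophages. Its rise over WT P1 MI was 3.59 ± 0.55 in macrophages (adjusted p = 5.47e-05 by edgeR and 0.258 by DESeq2), 2.01 ± 0.37 in fibroblasts (adjusted p = 2.8e-06) and 1.94 ± 0.55 in endothelium (adjusted p = 0.0149). In the classes without a test, against WT P1 MI replicate 2 alone, Egln3 had 33.6 and 2.25 CPM in monocytes, a ratio of 3.77 (2.63 to 5.56, on 105 and 5 UMIs), and 104 and 29.5 CPM in neutrophils, a ratio of 1.81 (1.55 to 2.10). There 10 of 31 genes in monocytes (4.78% of all genes) and 8 of 31 in neutrophils (8.26%) were at least 2-fold higher.

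Mif (chr10:75859353-75860240, minus strand) had 152, 169, 259, 358, 1125, 261 and 984 CPM in fibroblasts and rose by 2.33 ± 0.46 there (adjusted p = 2.05e-05) and by 2.04 ± 0.52 in macrophages (adjusted p = 0.0285). Bnip3 rose by 1.94 ± 0.48 in macrophages (adjusted p = 0.0206) and 1.35 ± 0.34 in fibroblasts, and DESeq2 called neither (0.309 and 0.35). Hif1a, the oxygen-regulated subunit itself, had 66.5, 70.5, 71.3, 118, 181, 114 and 304 CPM in fibroblasts, highest in the knockout infarct library, and rose by 2.25 ± 0.37 (adjusted p = 9.07e-08). The promoters of Slc16a3, Egln3, Mif, Bnip3 and Pgk1 are the ones printed above.

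Among the enzymes in fibroblasts, Pkm (2.25 ± 0.44), Tpi1 (2.13 ± 0.40), Gapdh (2.02 ± 0.55, adjusted p = 0.0055), Eno1 (1.86 ± 0.41), Pfkl (1.83 ± 0.32), Pgk1 (1.77 ± 0.39), Pgam1, Ldha, Aldoa, Gpi1 and Ldhb rose, the last 5 by 1.01 to 1.52. Ldhb was not called without TMM (0.87). Slc2a1 rose by 2.02 ± 0.36 (adjusted p = 1.74e-06). DESeq2 did not call Slc2a1 (adjusted p = 0.199), Gpi1 or Ldhb in fibroblasts (the lost calls there, Bnip3 included, had 0.0737 to 0.519), and without the low-count filter Ldhb, Gpi1, Ldha and Aldoa lost theirs (0.0591 to 0.083). In fibroblasts Gapdh had 810, 831, 776, 876, 1199, 1183 and 2941 CPM, with the knockout infarct value above all others. Pgk1 (chrX:106187100-106203699, plus strand) was the 1 enzyme called in macrophages, at 2.03 ± 0.52 (adjusted p = 0.0336), and Tpi1 the 1 called in endothelium, at 1.29 ± 0.41 (adjusted p = 0.0497; 0.99 without WT P1 MI replicate 1). Eno1 in fibroblasts was 1.5 without replicate 2, within 1 header version, and 2.30 without replicate 1. Xist was at 46.3 CPM in Mertk KO P1 MI, and its part in the Pgk1 value was not tested.

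Mertk KO P1 MI also held 3004 neutrophils. Summed neutrophil markers stood high in its fibroblasts, at 843 CPM (4.53 and 303 in the WT P1 MI libraries), and in its endothelium, at 2399 (9.48 and 245). In its macrophages they stood at 1636 CPM, between the WT P1 MI libraries (52.0 and 3518). All 8 neutrophil markers were detected in those macrophages. The neutrophil RNA was estimated at 0.472% of the fibroblast UMIs, 1.34% of the endothelial and 0.916% of the macrophage UMIs. In WT P1 MI replicate 2 the estimates were 0.17%, 0.137% and 1.97%, and in replicate 1 at most 0.0291%. Monocytes had 5.35% in Mertk KO P1 MI and 5.73% in WT P1 MI replicate 2, and the part of this in their ratios was not tested. After neutrophil and macrophage RNA was subtracted 25 pairs were called, 24 of them the same, and macrophage Pgk1 lost its call at 2.05.

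The injury effect itself was not shown to differ by genotype. For the knockout minus the WT difference between infarction and sham, 0 of these genes were called in any class by edgeR and 0 by DESeq2, where 0.664% of all genes were called in macrophages, 0.597% in fibroblasts, 0.414% in endothelium, 0% in T cells and 0.0554% in B cells. An unadjusted p under 0.05 was reached by 8 of 33 genes in fibroblasts and 2 of 29 in endothelium, and by 0 in the other 3 classes. The largest were Slc16a3 in endothelium (2.64 ± 0.80, adjusted p = 0.166) and in fibroblasts (1.68 ± 0.52, adjusted p = 0.151).

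**Figure D4:**
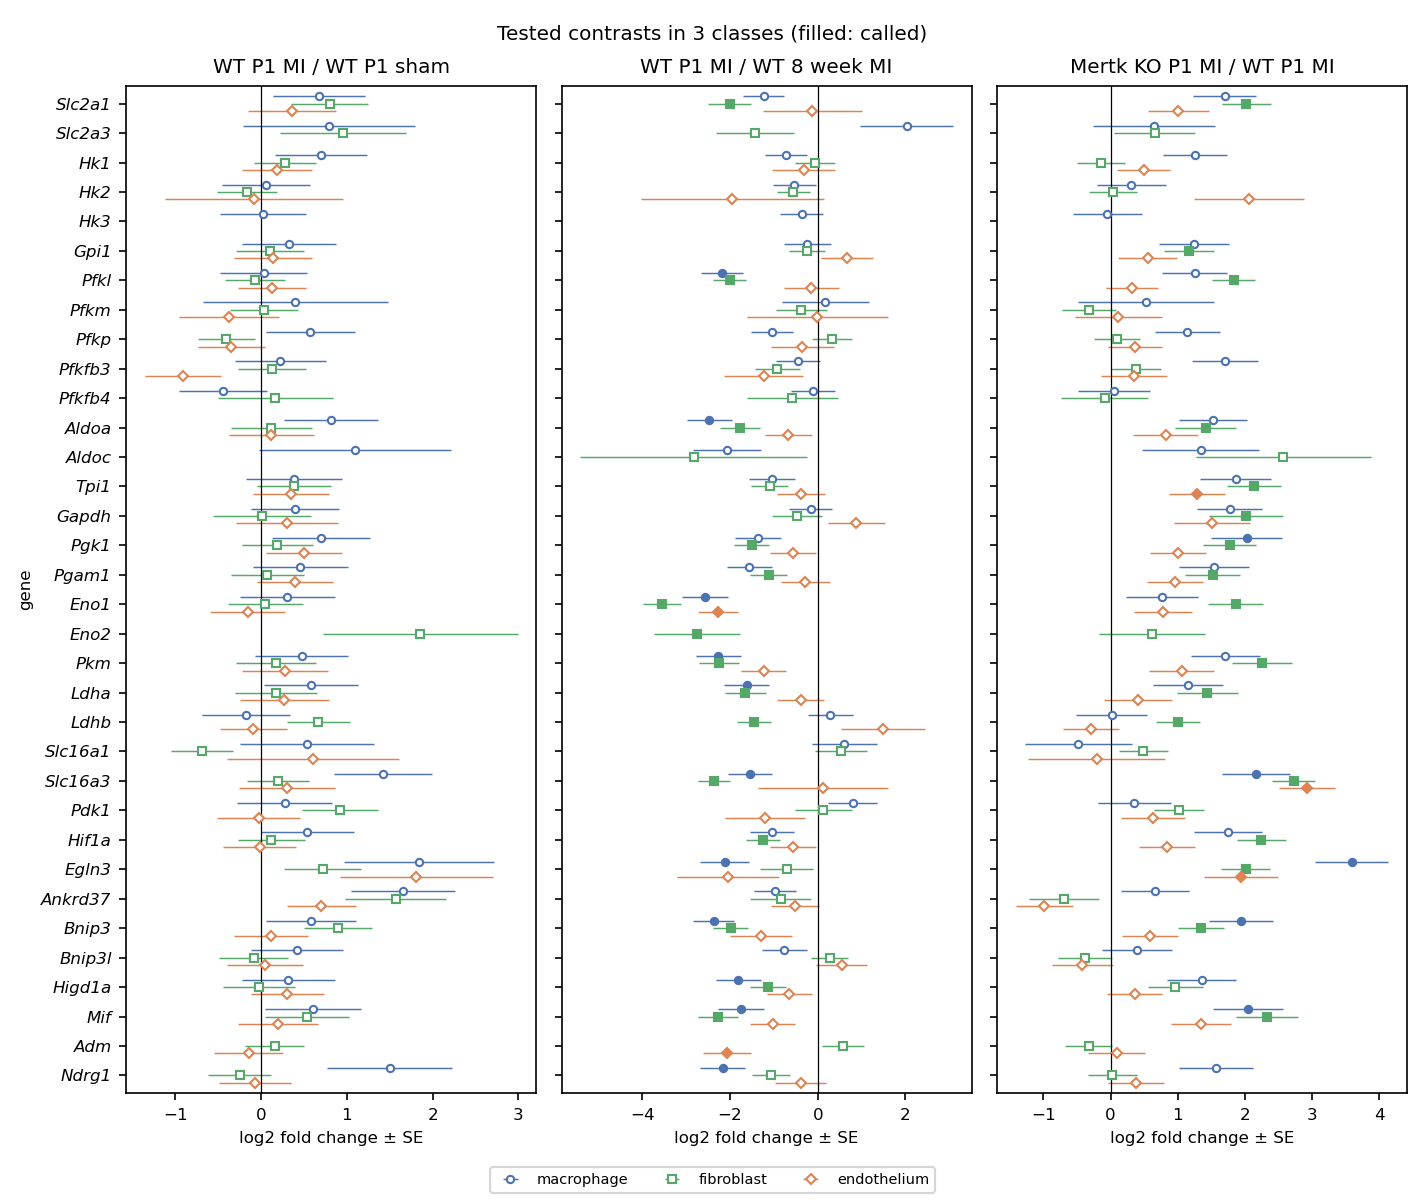
Log2 fold change with its SE (x axis) of each gene (y axis) in macrophages, fibroblasts and endothelium for 3 tested contrasts; filled symbols were called. No symbol is filled for WT P1 MI against sham, 28 are filled below 0 against WT 8 week MI and 25 above 0 for Mertk KO P1 MI; fibroblast Aldoc in the left panel and endothelial Slc16a1 in the middle one are left out for an SE above 3.

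The remaining contrasts have 1 library on each side, so they are given as log2 CPM ratios with intervals for counting error only, without a test, over genes with at least 20 UMIs. Between WT 8 week MI and its sham the median ratio of the genes was 1.22 in fibroblasts, 1.10 in endothelium, 1.04 in monocytes, 0.67 in B cells and 0.48 in macrophages, beside 0.02, 0.19, -0.09, 0.45 and -0.32 over all genes. At least 2-fold higher were 19 of 32 genes in fibroblasts (16% of all genes), 17 of 31 in endothelium (22%), 16 of 27 in monocytes (17%), 7 of 32 in macrophages (9.04%) and 11 of 30 in B cells (33.5%). The largest ratios included Eno1 in fibroblasts (3.54, 95% interval 3.41 to 3.66), Bnip3 in macrophages (3.33, 3.06 to 3.63) and Pkm in monocytes (2.71, 2.55 to 2.87). Adm in fibroblasts (-1.66, -2.55 to -0.98) and Gapdh in macrophages (-0.64, -0.67 to -0.60) went the other way. The headers name Cell Ranger 4.0.0 for WT 8 week MI and 6.1.0 for its sham. The part of this in these ratios, Eno1 among them, was not tested.

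Between Mertk KO P1 MI and its own sham the median was 0.96 in neutrophils, 0.85 in fibroblasts, 0.79 in macrophages, 0.61 in endothelium and 0.48 in monocytes, beside 0.13, -0.27, -0.29, -0.23 and -0.22 over all genes, while T cells (0.10) and B cells (0.06) lay near their all-gene medians (-0.12 and -0.09). At least 2-fold higher were 11 of 30 genes in macrophages (2.53% of all genes), 14 of 32 in fibroblasts (4.84%), 15 of 31 in neutrophils (14.3%) and 5 of 28 in endothelium (3.63%). Egln3 in macrophages had a ratio of 3.98 (2.74 to 6.04), on 104 and 4 UMIs. Mif had 132 CPM in the sham neutrophils and 941 after infarction, a ratio of 2.83 (2.68 to 2.99), and Hk3 had 37.5 and 19.9, a ratio of -0.92 (-1.26 to -0.56).

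Between the sham libraries, Mertk KO P1 against WT P1, the median ratio was 0.91 in T cells (14 of 29 genes at least 2-fold higher, 8.58% of all genes), 0.60 in macrophages (6 of 28, 5.27%) and 0.51 in fibroblasts (4 of 32, 5.89%), beside 0.12, -0.02 and 0.07 over all genes. It was 0.53 in monocytes (6 of 28, 7.99%) and 0.50 in neutrophils (5 of 27, 16.2%), beside -0.04 and -0.17. Endothelium had 0.22 and B cells 0.12, beside 0.14 and 0.04. Tpi1 in T cells had 337 against 63.4 CPM, a ratio of 2.41 (2.09 to 2.75). Between WT P1 sham and WT 8 week sham the macrophage median was -0.69 beside 0.20, with 11 of 31 genes at least 2-fold lower (10.6% of all genes), led by Slc16a3 (28.7 against 164 CPM, a ratio of -2.51, -2.91 to -2.16). Other classes lay between -0.19 and 0.27 in this contrast. Contrasts with a sham or infarct library in common share its counting error.

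**Figure D5:**
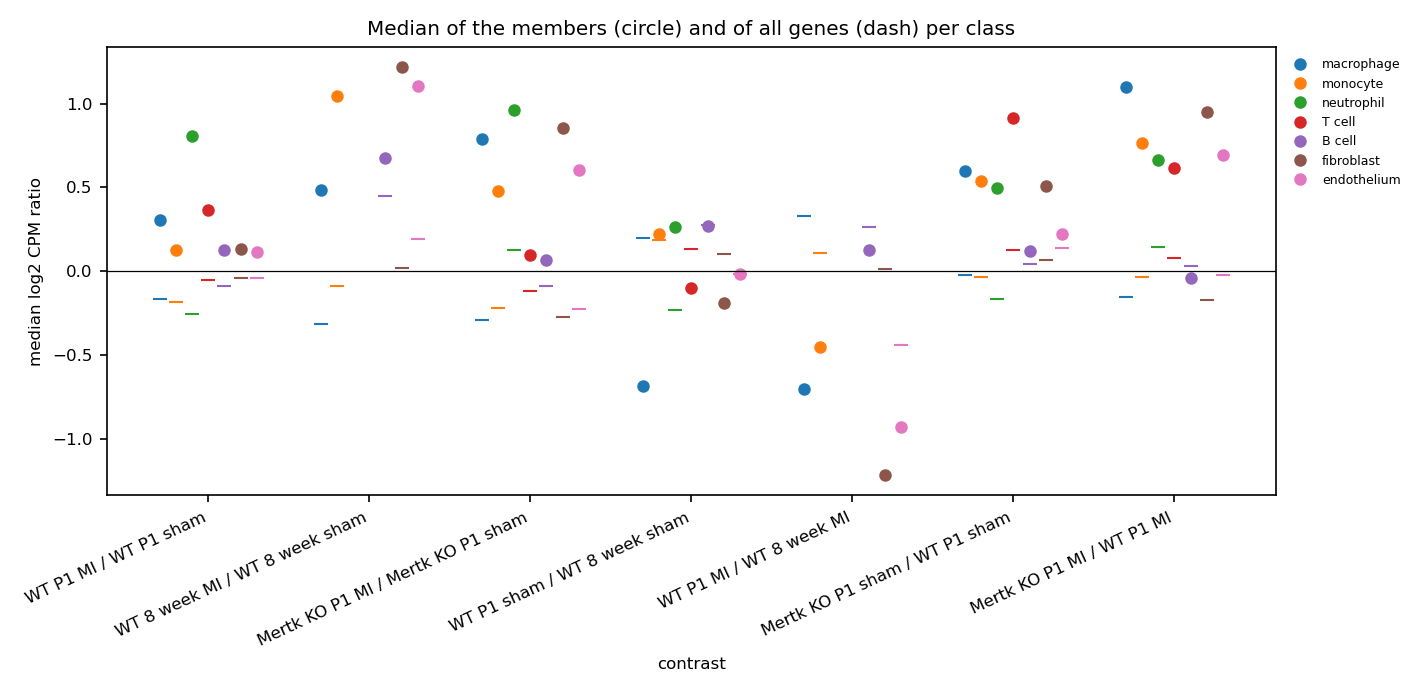
Median log2 CPM ratio (y axis) of the 34 genes with at least 20 UMIs (circles) and of all such genes (dashes) for 7 contrasts (x axis) in each class with a value. Circles lie above their dashes for WT 8 week MI against sham (fibroblasts 1.22 against 0.02) and below them in macrophages for WT P1 MI against WT 8 week MI.

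Lists of related genes were counted in the same comparisons. Between infarcted knockout and WT hearts, where 5.14% of all genes were higher in fibroblasts, 0.588% in macrophages and 2.81% in endothelium, 5 of 18 other HIF targets and regulators were higher in fibroblasts (Fam162a at 2.24, P4ha2 at 1.40) and 2 of 16 in macrophages (Fam162a at 2.13, Ero1l, an oxidoreductase of the endoplasmic reticulum, at 1.88), with 0 lower and 0 of 17 called in endothelium. Of other sugar metabolism genes, 2 of 12 were higher in macrophages (Gys1, glycogen synthase, at 2.53 and Pgm1, phosphoglucomutase, at 2.42), 2 of 13 were higher and 1 lower in fibroblasts, and 2 of 12 were higher in endothelium (Pygl, glycogen phosphorylase, at 2.01 and Pgm1 at 1.63). Pyruvate oxidation and the tricarboxylic acid cycle had 0 of 16 called by edgeR in macrophages and in fibroblasts (0 and 1 at an unadjusted p under 0.05), and fatty acid oxidation 0 of 8 in each (0 and 0). Against WT 8 week MI, 10.6% of all genes were higher and 7.36% lower in fibroblasts, 4.39% and 4.11% in macrophages and 1.38% and 1.15% in endothelium. The HIF list had 2 higher and 3 lower of 18 in fibroblasts (Egln1 at 1.98, Ddit4 at -2.41), 1 lower of 16 in macrophages (Ddit4 at -2.89), and 1 higher and 1 lower of 17 in endothelium. Of fatty acid oxidation genes 2 of 8 were higher in fibroblasts, including the acyl-CoA dehydrogenase Acadl (2.05), and of the tricarboxylic acid cycle list 1 of 16 was lower in fibroblasts and 1 in macrophages. Of other sugar metabolism genes 1 of 13 was higher and 1 lower in fibroblasts, and 1 of 12 was higher in macrophages and in endothelium. Pgls, of the pentose phosphate pathway, was higher in WT P1 MI in macrophages (3.06), fibroblasts (2.94) and endothelium (4.39). In WT P1 MI against WT P1 sham edgeR called 0 genes of the 4 lists in macrophages, fibroblasts and endothelium, where 3, 1 and 0 had an unadjusted p under 0.05.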

How the data were processed

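The 7 libraries (6 groups) were 3′ single-cell RNA-seq of digested hearts. The deposited values are UMI counts, unnormalized, that the authors obtained from Cell Ranger with GRCm38 (mm10), per the submitters' processing notes. Per the file headers, 2 libraries came from Cell Ranger 6.1.0 (WT 8 week sham and replicate 2 of WT P1 MI) and 5 from 4.0.0. The 34 genes, the gene lists and the tests were chosen with earlier results of these data known; every one of the 34 could be named, and of the other lists at most the 4 called genes of largest change per comparison.

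Of 44318 barcodes, 40158 were kept, each with 500 or more UMIs, 300 or more genes and a mitochondrial share of at most 15%. A cell was placed in a class when at least 3 of 8 markers had a UMI, they led every other list by at least 2, and no list of another lineage had more than 4. Cells mixed between lineages (4632, 11.5%) were set aside, which is how doublets were treated. UMIs were summed per class and library. Sums of at least 20 cells entered the class fit and of at least 30 cells the fits of conditions, by edgeR 4.0.16 (TMM, filterByExpr, quasi-likelihood test, Benjamini-Hochberg adjustment over all genes; R 4.3.3, limma 3.58.1). Each SE is the log2 fold change divided by the root of F. The fits were tested on simulated data.

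Ratios without a test had 0.5 counts added. Isoform shares used exact permutation in scipy 1.17.1 (Python 3.11.15). Alternatives were a stricter gate, a gate on counts thinned to 1000 UMIs, Scrublet removal in scanpy 1.11.5 (0.8% per 1000 barcodes), at least 1000 UMIs with at most 10% mitochondrial UMIs, no TMM, no low-count filter, DESeq2 1.42.0, no library block, leaving out libraries and, chosen after seeing the data, subtraction of neutrophil and macrophage RNA. Intervals cover counting error only. Class sums gave 98857 UMIs (endothelium, WT 8 week MI) at the low end of the tested stromal sums, so genes of few CPM are imprecise there. Gene positions are from GENCODE vM21.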

Additional observations from a re-analysis of the deposited data

Results flagged for a closer look

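In 5 gene and class pairs a difference in the effect of infarction between the ages was called by the test of the difference itself (edgeR's quasi-likelihood test, neonatal minus adult, log2). They were Bnip3 in macrophages (-3.04, adjusted p = 0.0145), Eno1 in fibroblasts (-3.30, adjusted p = 0.000107) and in endothelium (-2.85, adjusted p = 0.0107), Pfkl in fibroblasts (-2.18, adjusted p = 0.00393) and Adm in fibroblasts (2.05, adjusted p = 0.0223). Over all genes, 2.68% were called in macrophages, 4.99% in fibroblasts and 0.742% in endothelium. Of the 4 groups behind each value, only WT P1 MI had more than 1 library, so age and library cannot be told apart. Without WT P1 MI replicate 1 or replicate 2 the values, which then have no test, were -2.86 and -3.29 for Bnip3, -3.74 and -2.98 for Eno1 in fibroblasts -3.16 and -2.58 for Eno1 in endothelium, -2.18 and -2.25 for Pfkl and 1.74 and 2.23 for Adm. DESeq2 did not call Bnip3, Pfkl or Adm (adjusted p = 0.104, 0.0975 and 0.298), the stricter gate lost Bnip3 and Adm (0.239 and 0.0552), the thinned gate Bnip3 (0.0709), and leaving out TMM Adm (0.0679).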

How the results depend on the processing

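No called pair changed its direction in any alternative run, while without TMM 37 of 682 pairs between conditions and 20 of 231 between classes, none of them called, had the opposite sign. The 96 calls between classes ranged from 74 (no TMM) to 103 (no library block) over the alternatives and from 89 to 100 when each library was left out; 67 of the 96 kept their call without TMM and 87 in DESeq2. For WT P1 MI against WT 8 week MI the stricter gate gave 14 calls in place of 28, all of them among the 28, and the others gave 19 to 30. For the knockout against WT P1 MI the alternatives gave 17 to 32 in place of 25; DESeq2 kept 15 of the 25, lost 8 and gave no adjusted p for 2. For the injury by age 3 pairs were called under the stricter gate, 3 with the thinned gate and 2 in DESeq2 in place of 5, and 5 to 6 otherwise. For WT P1 MI against sham the thinned gate gave 1 call in place of 0. With the thinned gate WT 8 week MI had 26 endothelial cells, under the minimum of 30 for the comparisons that use it, which were not fitted in endothelium. The cause of lost calls was not tested; the thinned gate placed more cells of WT P1 MI replicate 2 and Mertk KO P1 MI among macrophages (619 against 525 and 268 against 251) and fibroblasts (3261 against 2985 and 628 against 549). For conditions, leaving out 1 WT P1 MI library left no residual degrees of freedom, so no test could be made, and the count is then of pairs at least 2-fold apart: 17 to 23 for WT P1 MI against sham, 57 to 58 against WT 8 week MI, 61 to 71 for the knockout, 40 to 46 for the injury by age and 43 to 48 for the injury by genotype. Ratios at least 2-fold apart in the contrasts without a test numbered 216, 219 with the stricter gate and 234 with 5 counts added. The isoform tests gave 0 calls under both gates. No paired analysis was possible because the groups compared share fewer than 2 replicate numbers. Depth limits WT 8 week MI most, with a median of 2152 UMIs per cell.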
